A study of Macaca mulatta with 5 samples.

Results

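H19 and DLK1 are 2 imprinted genes that were followed here through a staged culture of rhesus macaque embryonic stem cells towards serotonin neurons. They were picked by symbol in the platform's probe table because they stood among the largest differences between embryoid bodies and stem cells in these same arrays. They are 2 of 14132 named genes, with 4 of the 52865 probe sets on the array: 3 for H19 and 1 for DLK1. The comparison of embryoid bodies with stem cells is therefore a description of how the genes were chosen.

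The cells were line 366.4, an embryonic stem cell line derived from a flushed preimplantation embryo. RNA of 5 stages was measured on Affymetrix rhesus arrays, 1 array to a stage, so nothing was replicated. In order, they were undifferentiated cells at passage 13, grown on mouse embryonic fibroblasts (ESC), embryoid bodies after 6 to 8 days (EB), spheres after 7 to 9 days in DMEM/F12 medium with N2 supplement (N1), cells expanded for another 7 to 9 days in that medium with FGF4 added (N2), and cells matured without FGF4 in growth factor reduced wells (N3). All stages descend from 1 line, the labels name no genetic change, and the part that fibroblast RNA plays in the ESC array was not tested. With 1 array on each side no test, error or p-value can be given, and no difference below has a replicate check.

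Imprinting is the silencing of a gene on the chromosome inherited from 1 parent, set by DNA methylation in the germ line. H19 is a long noncoding RNA expressed from the maternal chromosome, and it shares an imprinting control region and enhancers with the growth factor gene IGF2, which is expressed from the paternal chromosome. DLK1 encodes a membrane protein related to the Notch ligands that is expressed from the paternal chromosome, holds back fat cell formation and lies in a cluster with the maternal noncoding RNA MEG3. Both genes are abundant in the fetus and mostly quiet in the adult. The arrays measured total RNA, so the parental origin of the transcripts was not measured.

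Signals are given after each array was scaled to the same trimmed mean of 500. Values under a floor of 100 were set to 100 before log2 ratios were taken, so a ratio with 1 side under the floor is a bound, written "at least", and no ratio is given with both sides under it. Signals of different probe sets depend on their own probes and are not compared with each other. The highest of 59 reporter control probe sets lay between 82.3 and 190 on the 5 arrays. The signal of actin probes at the 3' end over those at the 5' end, a measure of RNA length, was 1.73 in ESC and 15.2, 5.43, 25.2 and 8.63 from EB to N3. For GAPDH it lay between 1.69 and 2.78 except in N2, where it was 7.10. Among the genes that define serotonin neurons, TPH2 and TPH1, the enzymes that start serotonin synthesis, and the factor LMX1B lay under the floor on every array. They are 3 of the 6 such genes with a probe set. The rest were above the floor on some arrays: SLC18A2 read 86.9 in ESC and between 141 and 189 later. GATA2 lay between 107 and 203 on the 5 arrays and FEV between 66.0 and 121. None of the 6 read above 203, so the label of the last stages is used here only as a name.

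H19 went from a low signal in the stem cells to 1 of the brightest signals of the array in embryoid bodies. Its brightest probe set, MmuAffx.23.13.S1_s_at, read 414 in ESC and 52029, 41387, 51046 and 42808 from EB to N3. The ESC array stood alone at the low end, and the 4 later arrays lay within 1.26-fold of each other. EB was 126-fold higher than ESC, a log2 ratio of 6.97, and N3 was 103-fold higher than ESC, a log2 ratio of 6.69. Both ratios rest on the same ESC array. The EB over ESC ratio of this set ranked 1 among the 8898 genes at or above the floor in ESC and in EB. Among all 10978 measured genes, bounds included, it ranked 6. On the arrays themselves this probe set ranked 5, 8, 10 and 19 from EB to N3, and it reached between 81.4% and 91.7% of the highest signal on those arrays. Whether the scanner's range limited it there was not tested.

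DLK1 followed a like course over the 5 stages. Its single probe set, MmugDNA.25115.1.S1_at, read 341 in ESC and 22327, 20994, 23693 and 17398 from EB to N3. Again ESC stood alone, and the 4 later arrays lay within 1.36-fold of each other. EB was 65.5-fold higher than ESC, a log2 ratio of 6.03, which ranked 3 among the 8898 genes and 14 among all 10978 measured. N3 was 51.1-fold higher than ESC, a log2 ratio of 5.67. This probe set stood between 33.1% and 44.7% of the highest signal on the 4 later arrays.

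**Figure D1:**
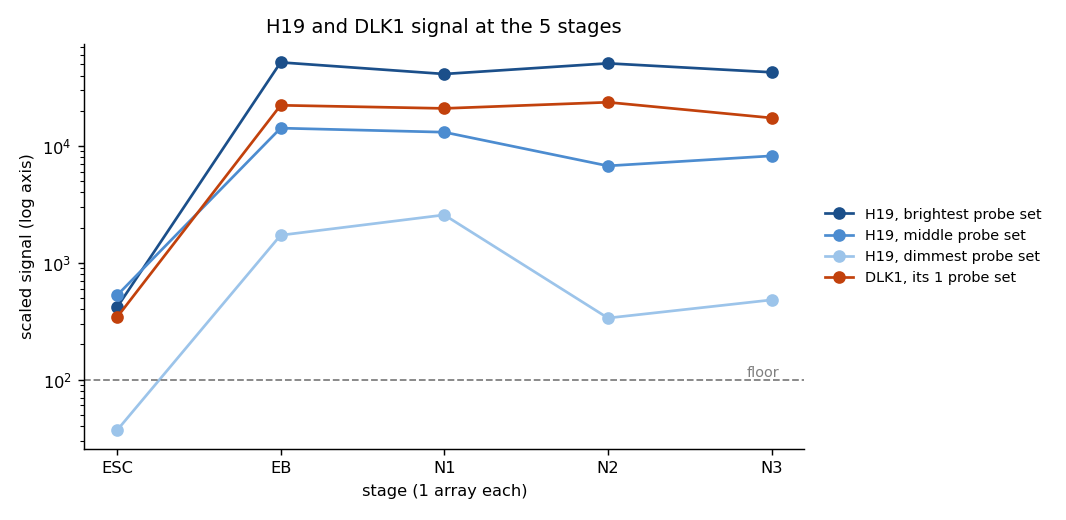
Scaled signal (vertical log axis) of the 3 H19 probe sets and the 1 DLK1 probe set on the array of each stage (horizontal axis), with the floor of 100 as a dashed line. The points are single arrays; the brightest H19 probe set goes from 414 to 52029 and DLK1 from 341 to 22327 between ESC and EB, while the dimmest H19 probe set is at 36.7 in ESC and at 336 in N2.

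The 2 other H19 probe sets were also lowest in ESC and differed from the brightest in the later stages. The middle one, MmugDNA.16224.1.S1_s_at, read 525 in ESC and 14227, 13133, 6760 and 8229 from EB to N3. Its N2 and N3 signals lay below its EB and N1 signals, and EB was 27.1-fold higher than ESC. The dimmest, Mmu.16030.2.S1_a_at, read 36.7 in ESC and 1722, 2569, 336 and 481 from EB to N3. It was at least 17.2-fold higher in EB than in ESC and at least 4.81-fold higher in N3 than in ESC. In Affymetrix names the ending _s_at marks a set whose probes can match more than 1 transcript and _a_at one that matches alternative transcripts of a gene. Where on H19 each set lies is not given in the sources used here.

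After the embryoid body stage the differences of both genes were small on the brightest H19 set and on the DLK1 set. For scale, where a gene had several probe sets, the log2 ratios of its 2 brightest differed with an SD of 0.45 for N1 over EB, 0.54 for N2 over N1 and 0.43 for N3 over N2 (divided by the square root of 2). This is the only technical spread at hand and not a replicate spread. The brightest H19 set had log2 ratios of -0.33, 0.30 and -0.25 in these 3 steps, all inside that SD. DLK1 had -0.09, 0.17 and -0.45, of which the last, N3 over N2, was just outside it. The sign of the first 2 steps of each gene turned when the arrays were scaled on the hybridisation controls, to 0.13 and -0.27 for H19 and to 0.38 and -0.40 for DLK1, so no direction is given for them. That scaling moved the median of all genes by 0.43 in N1 over EB and by -0.53 in N2 over N1.

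Such small differences were common on these arrays. In N1 over EB, 92.7% of the measured genes lay within 2-fold, in N2 over N1 88.4% and in N3 over N2 93.0%. H19 stood at percentile 23.6 of all measured genes in N1 over EB, 73.4 in N2 over N1 and 28.7 in N3 over N2. DLK1 stood at percentiles 44.1, 65.6 and 14.9 in the same steps.

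In order of signal, the brightest H19 set ran EB, N2, N3, N1 and ESC, and only the last gap, between N1 and ESC, was wider than the probe set SD. DLK1 ran N2, EB, N1, N3 and ESC, again with only the gap above ESC wider than that SD. The middle H19 set ran EB, N1, N3, N2 and ESC, and the gap between N1 and N3, 0.67 on the log2 scale against an SD of 0.50, was wider as well. The dimmest H19 set ran N1, EB, N3, N2 and ESC, with all 4 gaps wider than the SD. The order of the later stages for H19 therefore differed with the probe set, and the rank of ESC did not.

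The step from N1 to N2 is where the H19 probe sets parted. The log2 ratio of N2 over N1 was 0.30 on the brightest set, -0.96 on the middle set (1.94-fold lower) and -2.93 on the dimmest set (7.64-fold lower). The range of 3.24 between them compares with a median range of 0.73 over the 4211 genes with more than 1 probe set measured in that step. Only 15 of those genes, 0.356%, had a range as wide. In N1 over EB the range was 0.91 and 29.7% of genes had one as wide, and in N3 over N2 it was 0.77 and 35.5% did. N2 is also the array with the highest 3' to 5' ratios of actin (25.2) and GAPDH (7.10), and the part of RNA length in the disagreement was not tested. Over the 2 less bright sets H19 was lower in N3 than in EB, with log2 ratios of -0.79 and -1.84 against an SD of 0.62, and on the brightest set the ratio was -0.28.

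**Figure D2:**
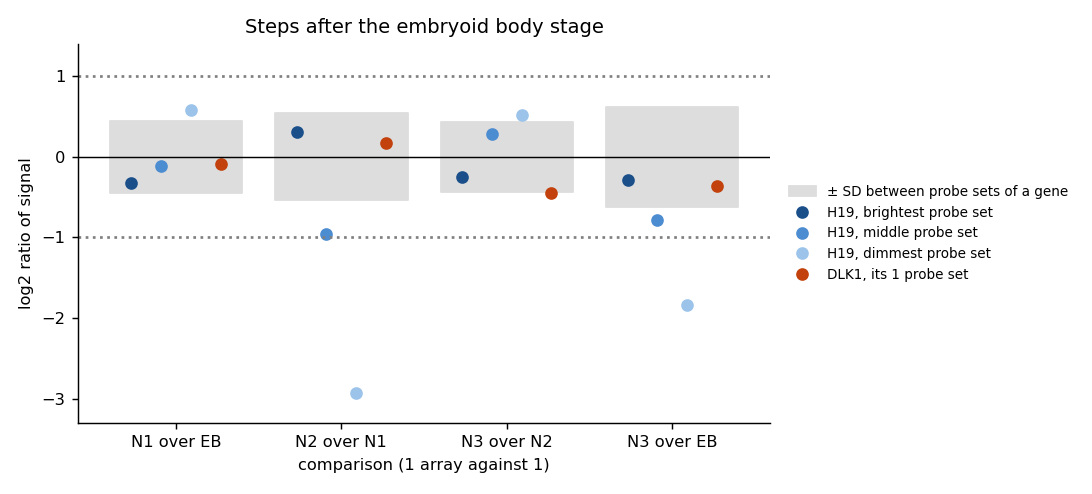
Log2 ratio of signal (vertical axis) of the 3 H19 probe sets and DLK1 for the steps after EB and for N3 over EB (horizontal axis), each from 1 array against 1. Grey bars show ± the SD between a gene's probe sets, and dotted lines mark 2-fold; the brightest H19 set stays inside the bars and DLK1 reaches -0.45 in N3 over N2, while the dimmest H19 set is at -2.93 in N2 over N1.

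IGF2, the growth factor gene that shares its control region with H19, was higher than in ESC at every later stage. Its single probe set read 70.2 in ESC and 1299, 1875, 696 and 1059 from EB to N3. ESC was under the floor, so EB was at least 13.0-fold and N3 at least 10.6-fold higher. Its log2 ratios were 0.53 for N1 over EB, -1.43 for N2 over N1 and 0.61 for N3 over N2. N2 was its lowest later stage, as on the 2 less bright H19 sets and unlike the brightest.

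MRPL23, a mitochondrial ribosomal protein gene and the nearest measured gene to H19 on its other side, read 3316 in ESC and 4836, 4269, 2110 and 2314 from EB to N3. The order of neighbouring genes was taken from the RefSeq annotation of assembly T2T-MMU8v2.0, and no coordinates are given because no build is named for the array. Of the 16 genes with a probe set nearest to H19, 8 on each side, 11 were measured in EB over ESC. IGF2 was the 1 that was at least 2-fold higher, and TNNT3, a fast skeletal muscle troponin, was the 1 that was at least 2-fold lower (at least 2.35-fold). Among all named genes measured in that comparison, 12.1% were at least 2-fold higher and 11.8% lower. For N3 over ESC, 4 of 14 measured neighbours were higher and 0 lower, against 17.2% higher and 16.4% lower among all genes. Those 4 were IGF2, TNNI2 (a muscle troponin, at least 4.38-fold), DUSP8 (a phosphatase of MAP kinases, 3.56-fold) and KCNQ1 (a potassium channel, 2.13-fold). The second KCNQ1 probe set went the other way, from 264 in ESC to 155 in N3, so its direction is uncertain. The neighbours' median log2 ratio was -0.23 in EB over ESC and 0.04 in N3 over ESC.

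The other imprinted genes of the H19 cluster were mostly within 2-fold in EB over ESC. Of 13 listed genes of this cluster 10 had a probe set and 9 were measured in EB over ESC, where IGF2 alone was at least 2-fold higher and 0 were lower, a share of higher genes near the 12.1% of all genes. The median log2 ratio of the 9 was -0.18, beside -0.06 over all genes. KCNQ1 read 115 in ESC and 147, 185, 162 and 246 from EB to N3. PHLDA2, a placental growth restrainer expressed from the maternal chromosome as H19 is, read 1076 in ESC and 588, 372, 312 and 178 from EB to N3. Its course was opposite to that of H19, with N3 6.04-fold lower than ESC. CD81, a tetraspanin of the cell surface, read 7284, 4458, 4640, 5939 and 7245 from ESC to N3.

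The other members of that cluster were low or had probe sets that differed. NAP1L4, a histone chaperone, lay between 2094 and 4176 on its brightest set. Of its 4 other sets 3 were past 2-fold lower in EB over ESC, with log2 ratios of -2.09, -1.62 and -1.21. TSSC4 lay between 342 and 550, SLC22A18, a transporter, between 178 and 285, and TSPAN32, a tetraspanin, between 68.1 and 113. OSBPL5, a lipid transfer protein, read 213 in ESC and 290, 177, 396 and 409 from EB to N3, and was 2.23-fold higher in N2 than in N1. Its 2 other probe sets gave log2 ratios of -0.01 and 0.22 for that step, and of -0.96 and -1.49 for EB over ESC, where the brightest gave 0.45. ASCL2, a transcription factor of trophoblast and gut, was under the floor on all 5 arrays. INS, KCNQ1OT1 and CDKN1C were not analysed here.

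Of the 7 listed genes of the cluster around DLK1, 2 had a probe set under their symbol in the platform table. DIO3, the enzyme that inactivates thyroid hormone, is expressed from the paternal chromosome as DLK1 is. It read 5.48 in ESC and 311, 290, 138 and 204 from EB to N3, so that EB was at least 3.11-fold and N3 at least 2.04-fold higher than ESC. BEGAIN, a postsynaptic protein gene, read 156 in ESC and 236, 343, 533 and 493 from EB to N3. It was 1.52-fold higher in EB and 3.17-fold higher in N3 than in ESC. Both genes had their lowest signal in ESC, as DLK1 had, but their later signals were low and differed between stages. MEG3, RTL1, MEG8, MEG9 and DIO3OS were not analysed here.

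Of the 16 nearest genes around DLK1, 15 were measured in EB over ESC, and 4 were at least 2-fold higher and 1 lower, against 12.1% higher and 11.8% lower among all genes. The higher genes were DIO3, EVL (2.67-fold), which acts on actin filaments, ZNF839 (2.55-fold) and WARS1, a tryptophan tRNA synthetase (2.08-fold). DEGS2, an enzyme of ceramide synthesis, was at least 4.29-fold lower. Of all 16 in N3 over ESC, 8 were higher and 4 lower, against 17.2% and 16.4% of all genes. The median log2 ratio was 0.90, and 0.14 in EB over ESC. EVL read 5156 in ESC and 13759, 12381, 16979 and 20295 from EB to N3. With the floor applied, none of the 16 had a log2 ratio of 3 or more in either comparison, where DLK1 had 6.03 and 5.67. DIO3 read 5.48 in ESC, so its ratios are bounds and can be larger.

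**Figure D3:**
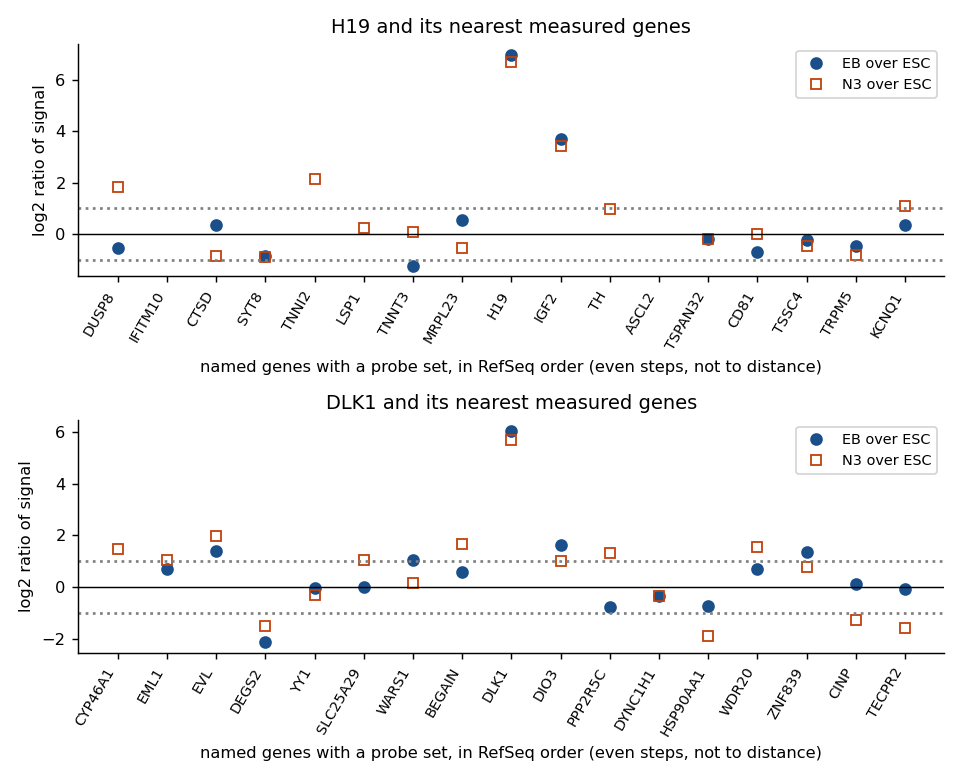
Log2 ratio of signal (vertical axis) for EB over ESC (filled circles) and N3 over ESC (open squares) of H19, DLK1 and the 8 nearest named genes with a probe set on each side, in RefSeq order at even steps. Dotted lines mark 2-fold and a gene under the floor on both arrays has no mark. Ratios with ESC under the floor are bounds, those of IGF2, TNNI2 and DIO3 among them. The widest plotted ratios around H19 are those of IGF2 (3.70 and 3.41), then TNNI2 (2.13) and DUSP8 (1.83) in N3 over ESC. No neighbour of DLK1 is plotted near its 6.03 and 5.67.

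Other imprinted genes shared the direction of H19 and DLK1 only in part. Over the 4 lists of imprinted genes, which hold 64 genes besides H19 and DLK1, 43 had a probe set and 30 were measured in EB over ESC. Of these 7 were at least 2-fold higher and 4 lower, beside 12.1% and 11.8% of all genes, so the share of lower ones was near that of all genes. Their median log2 ratio was -0.11. The counts for N3 over ESC were 11 of 34 higher and 4 lower, beside 17.2% and 16.4% of all genes, with a median of 0.37 beside -0.13 over all genes. With the floor applied, none of the 30 measured had a ratio near those of H19 and DLK1. The highest in EB over ESC were IGF2 and PEG3. IGF2 and DIO3 lay under the floor in ESC, so their ratios are bounds and can be larger. Scaling to equal medians made the EB over ESC counts 11 higher and 2 lower, and it moved the median of all genes by 0.46.

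All 7 imprinted genes that were higher in EB over ESC are expressed from the paternal chromosome, as DLK1 is, and all 4 that were lower from the maternal one, as H19 is. Of 10 paternally expressed genes measured outside the H19 and DLK1 clusters, 5 were higher and 0 lower in EB over ESC, beside 12.1% and 11.8% of all genes, with a median log2 ratio of 0.79. Of 11 measured in N3 over ESC, 6 were higher and 0 lower on their brightest sets, beside 17.2% and 16.4%, with a median of 1.10. PEG3, a zinc finger gene, read 381 in ESC and 4652, 5340, 5512 and 8011 from EB to N3, and its second probe set was also lowest in ESC. PLAGL1, a zinc finger factor placed upstream of an imprinted gene network that includes H19 and DLK1, read 160 in ESC and 1582, 2142, 2588 and 2096 from EB to N3. In these 2 genes EB was 12.2-fold and 9.86-fold higher than ESC, and the later stages stayed above it.

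Of the rest of that group SGCE, MEST and MAGEL2 were higher by less in embryoid bodies and by more in the last stage. SGCE, a sarcoglycan, read 340 in ESC, 820 in EB and 1969 in N3. MEST, a gene of the hydrolase family, read 4956 in ESC, 10029 in EB and 21029.6 in N3. MAGEL2 read 373 in ESC and 770, 722, 1983 and 3485 from EB to N3. For these 3 genes N3 was higher than EB, where H19 and DLK1 were level or lower. SLC38A4, an amino acid transporter, was 2.15-fold higher in N3 than in ESC on its brightest set, but another of its sets read 1114 in ESC and 35.3 in N3, so its direction is uncertain. SNRPN, a gene of RNA splicing, read 28135 in ESC and 15567 in EB on its brightest set and was lower in EB on its second set as well, with log2 ratios of -0.85 and -2.72. On their brightest sets NDN, IMPACT and INPP5F were within 2-fold of ESC in both EB and N3. Their N3 over ESC log2 ratios were -0.52, 0.42 and -0.12. The other NDN probe sets were past 2-fold lower in N3 over ESC, with log2 ratios of -1.24 and -1.68.

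The maternally expressed genes did not share the course of H19. Of 9 measured outside the 2 clusters, 0 were at least 2-fold higher and 4 were lower in EB over ESC, beside 12.1% and 11.8% of all genes. They were TFPI2, a protease inhibitor (5.49-fold lower), PPP1R9A, a neuronal actin regulator (at least 2.85-fold), NTM, a neural adhesion protein (2.23-fold), and ATP10A, a lipid flippase (at least 2.10-fold). Of 12 measured in N3 over ESC, 1 was higher, CPA4, a carboxypeptidase, at 4.13-fold, and 3 were lower, beside 17.2% and 16.4% of all genes. GRB10, a restrainer of insulin signalling, lay between 1327 and 2615 on the 5 arrays, and IGF2R, the receptor that clears the IGF2 protein, between 4204 and 7509. One TFPI2 probe set read 135 in ESC and 772 in N3, against the direction of its brightest set.

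In the steps after EB neither H19 on its brightest set nor DLK1 differed by 2-fold, and the imprinted genes that did were different ones at each step. In N1 over EB 1 of 29 measured members was at least 2-fold higher, SLC38A4, and 0 were lower, while 5.15% of all genes were higher and 2.2% lower. In N2 over N1 4 of 33 were higher, TFPI2, MAGEL2, CPA4 and OSBPL5, and 2 were lower, IGF2 and DIO3, beside 5.06% and 6.53% of all genes. The 2 that were lower, a share near that of all genes, are the paternally expressed neighbours of H19 and DLK1. These counts moved with the scaling on the hybridisation controls, to 0 higher and 4 lower. They also moved with the floor. With a floor of 200 they were 2 and 1, and with values as deposited 1 and 1. The scale factor was 2.51 on every array, so the deposited values kept the ratios between arrays. The same floor on these lower values was in effect a higher one. In N3 over N2 1 of 32 was higher, NTM, and 0 were lower, beside 4.78% and 2.19% of all genes.

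**Figure D4:**
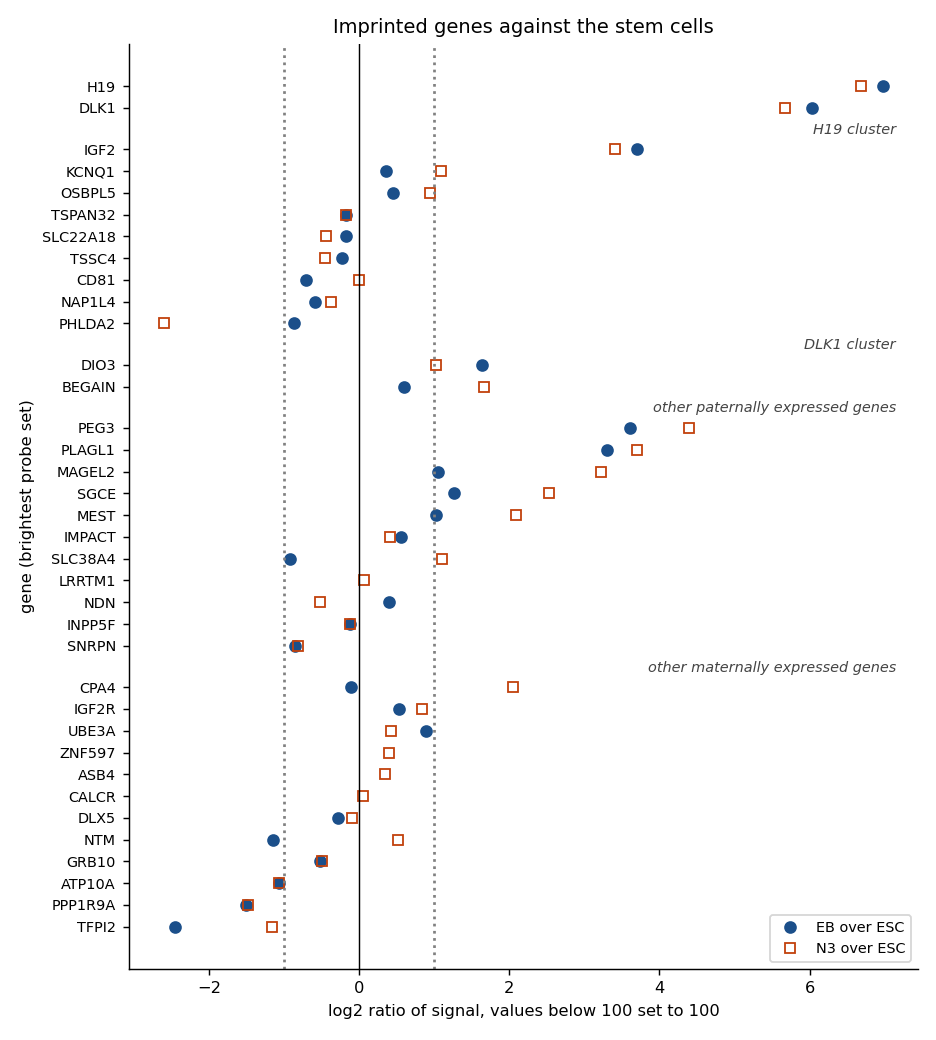
Log2 ratio of signal (horizontal axis) for EB over ESC (filled circles) and N3 over ESC (open squares) of H19, DLK1 and every measured gene of the 4 imprinted lists (vertical axis, by list). Dotted lines mark 2-fold; H19 and DLK1 stand at 6.97 and 6.03 in EB over ESC, the next genes IGF2, PEG3 and PLAGL1 between 3.30 and 3.70, and the maternally expressed genes lie on both sides of 0.

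The genes that write and keep imprints were mostly level while H19 and DLK1 differed most. Of 15 measured in EB over ESC, 1 was at least 2-fold higher, TET2 (4.11-fold), an enzyme that oxidises methylated DNA, and 1 was lower, DNMT3B (8.38-fold), an enzyme that methylates DNA anew. Both shares were below the 12.1% and 11.8% of all genes. DNMT3B read 16813 in ESC and 2007, 1067, 1191 and 1294 from EB to N3. Like H19 and DLK1 it had its 1 wide step between ESC and EB, in the other direction. In N3 over ESC 6 of 15 were higher and 3 lower, beside 17.2% and 16.4% of all genes. DNMT1, which copies methylation at replication, was 4.07-fold higher, and TRIM28, which guards imprints in the early embryo, was 2.14-fold lower. DNMT3A was 3.16-fold lower, and its second probe set had the same direction, with a log2 ratio of -1.50.

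Most measured genes of a list of H19 RNA partners and of the let-7 microRNA axis did not pass 2-fold in EB over ESC. Of the 13 listed, 9 had a probe set, and in EB over ESC 1 of 8 measured was higher and 2 were lower, beside 12.1% and 11.8% of all genes. DICER1, which cuts microRNA precursors, was 2.10-fold higher, and its 3 other probe sets were under the floor. Its brightest set read 1802 in ESC and 3779, 3790, 4206 and 3150 from EB to N3. The log2 ratio of N3 over ESC was 0.81, against a probe set SD of 0.82. In N3 over ESC 0 of 9 were higher and 3 were lower, beside 17.2% and 16.4% of all genes: HMGA1, LIN28B and IGF2BP1. H19 is known to bind let-7, the microRNA family whose maturation LIN28B blocks. HMGA1, a chromatin protein, read 23263 in ESC and 10928, 5534, 3884 and 2311 from EB to N3. LIN28B read 6987 in ESC and 9472, 5386, 3963 and 1400 from EB to N3.

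IGF2BP1, an RNA binding protein named for its binding to IGF2 RNA and known to bind H19, read 497 in ESC and 150, 522, 117 and 235 from EB to N3. It was 3.31-fold lower in EB than in ESC, then 3.47-fold higher, 4.48-fold lower and 2.01-fold higher in the next steps. Its second probe set read 492 in ESC and between 118 and 222 later, without the high signal in N1. IGF2BP3, of the same family, lay between 7566 and 11922 on the 4 later arrays.

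Among DLK1's Notch partners, 3 targets of Notch were higher in EB than in ESC on their brightest sets. Of 17 measured in EB over ESC, 4 were at least 2-fold higher and 2 lower, beside 12.1% and 11.8% of all genes. HEY1, a repressor switched on by Notch, read 241 in ESC and 2354, 2472, 2026 and 1171 from EB to N3. Its relatives HEY2 (at least 3.70-fold) and HEYL (2.79-fold) were higher in EB too, but the second HEYL probe set was lower, with a log2 ratio of -2.27. HEY1 thus had a wide step to EB, as DLK1 had. Its lowest later signal was in N3, as was that of DLK1. For DLK1 the gap between N1 and N3 was 0.27 on the log2 scale, inside the probe set SD of 0.50.

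DLL1, DNER and HES5 took another course. DLL1, a ligand that activates Notch, read 264 in ESC and 935, 1221, 3780 and 6058 from EB to N3. DNER, a noncanonical ligand of neurons as DLK1 is a noncanonical ligand, read 146 in ESC and 125, 305, 1902 and 5577 from EB to N3. HES5, a Notch target of neural progenitors, lay under the floor in ESC and EB and read 274 in N1, 1203 in N2 and 2586 in N3. On their brightest sets all 3 had their highest signal in N3, which was the lowest of the later stages for DLK1. The second DLL1 probe set, between 172 and 372 on the 5 arrays, did not show this course. Nor did the second HES5 set, which was above the floor in N1 alone, at 134, and read 14.5 in N3.

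DLK2, the closest relative of DLK1, was low at every stage. It read 292 in ESC and 162, 37.5, 97.6 and 193 from EB to N3, and ESC was its highest stage where it was the lowest for DLK1. Of the Notch partners, 8 of 17 were at least 2-fold higher and 1 lower in N3 over ESC, beside 17.2% and 16.4% of all genes. The lower one was HES1, a Notch target, which read 485 in ESC, 672 in N2 and 115 in N3. ACVR2B, an activin receptor, was 2.13-fold lower in EB than in ESC. ADAM17, the protease that sheds the outer part of DLK1, and NOTCH1 were not analysed here.

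The fat cell programme that DLK1 holds back was represented by 9 of 10 listed genes. CEBPA, a factor of fat and liver cells, read 93.9 in ESC and 5742, 3568, 745 and 222 from EB to N3. It was at least 57.4-fold higher in EB and then lower at each stage, while DLK1 stayed level. CEBPD, an early factor of fat cell formation, was 2.77-fold higher in EB. These were the 2 of 7 measured genes that were at least 2-fold higher in EB over ESC, and 0 were lower. Among all genes the shares were 12.1% and 11.8%. PPARG, the factor that defines fat cells, was under the floor on all 5 arrays. ADIPOQ, a hormone of fat cells, lay between 1498 and 3103. SOX9, which DLK1 is known to act through in fat precursors, was under the floor in ESC and EB and read 244 in N3.

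Over the 4 pathway lists together, 8 of 47 measured genes were at least 2-fold higher and 5 lower in EB over ESC, beside 12.1% and 11.8% of all genes. In N3 over ESC 17 of 49 were higher and 7 lower, beside 17.2% and 16.4%. With equal medians the first counts were 18 higher and 2 lower. DLK1 and H19 share the ESC array with both of these comparisons.

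Markers of several other cell types differed between the same arrays as H19 and DLK1. In RNA from a whole culture, fewer cells of a type and less RNA per cell cannot be told apart. The summed signal of 9 liver and yolk sac markers was 2124 in ESC and 71232, 68464, 20623 and 3856 from EB to N3. Within it FGB, a fibrinogen chain, read 3.48 in ESC and 26301, 15461, 3222 and 71.2 from EB to N3. AFP, the classic marker of yolk sac and fetal liver, read 991 in ESC and 601, 484, 410 and 437 from EB to N3, and had no high signal in EB. The liver sum was low again in N3, where the brightest H19 set and DLK1 stood at 103-fold and 51.1-fold over ESC. The middle H19 set stood there at 15.7-fold and the dimmest at 4.81-fold or more.

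The mesenchyme markers were a list whose sum stayed high after EB. The sum of its 8 genes was 15190 in ESC and 34508, 41192, 49198 and 52823 from EB to N3, and all 8 were at or above the floor on the 4 later arrays. LUM, a matrix proteoglycan, read 46.0 in ESC and 17532, 14991, 17003 and 12912 from EB to N3. DCN, a related proteoglycan, read 13.8 in ESC and 7189, 10986, 11974 and 9821 from EB to N3. PRRX1, a factor of limb and connective tissue mesenchyme, read 24.2 in ESC and 3267, 2783, 3481 and 2053 from EB to N3. These 3 genes had the course of the brightest H19 set and DLK1, but the list was split. In EB over ESC 3 of 8 were higher and 3 lower, beside 12.1% and 11.8% of all genes. The median log2 ratio was -0.15, beside -0.06 over all genes. The lower ones were THY1 (8.67-fold) and the collagen genes COL3A1 (5.30-fold) and COL1A2 (3.51-fold), while COL1A1 and TWIST1 were within 2-fold.

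The other marker lists followed other courses. The heart muscle sum of 6 genes was 884 in ESC and 24753, 14910, 5414 and 6544 from EB to N3. The skeletal muscle sum of 11 genes lay between 10996 and 16039 up to N2 and was 53588 in N3, with MYF5 and MYF6 under the floor on all 5 arrays. Neither sum was level after EB, as H19 on its brightest set and DLK1 were. The trophoblast sum of 8 genes went from 3230 in ESC to 8856 in EB and 1666 in N3, with GCM1 and CYP19A1 under the floor throughout. That list was split in EB over ESC. Of 5 measured, 3 were at least 2-fold higher, CDX2, GATA3 and PGF, and 2 lower, TFAP2C and KRT7. Among all genes the shares were 12.1% and 11.8%. The endothelial sum of 6 genes was 3462 in ESC, 11542 in EB and 1693 in N3, with KDR and VWF under the floor throughout. The sum of 5 markers of steroid-making cells lay between 1979 and 4674, with CYP17A1 and HSD3B2 under the floor throughout.

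The pluripotent and neural lists framed the culture. The sum of 7 pluripotency genes was 73399 in ESC and between 9477 and 19148 later, and POU5F1 read 28621 in ESC, 906 in EB and 14.7 in N3. Of the 7, 0 were at least 2-fold higher and 4 lower in EB over ESC, beside 12.1% and 11.8% of all genes. In N3 over ESC 1 was higher, NANOG, and 4 were lower, beside 17.2% and 16.4%. SOX2 was at least 2-fold higher in N3 than in EB. The sum of 7 neural genes was 9797 in ESC and 4504, 19873, 31850 and 54632 from EB to N3. The brightest H19 set and DLK1 were high in EB, where the neural sum was lowest, and in N3, where it was highest. Single neural genes differed from the sum: in EB over ESC 3 of 6 measured were higher and 2 lower. Among all genes the shares were 12.1% and 11.8%. The part that any of these cell types has in the H19 and DLK1 signals was not tested.

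The genes whose profile was most like that of H19 and DLK1 depended on the probe set and the measure. Likeness was the root mean square difference between log2 signals over the 5 arrays after subtracting each gene's mean, among 1105 genes that reached 1000 and varied 4-fold or more. By this measure the brightest H19 set and DLK1 differed by 0.36. The 8 genes closest to the brightest H19 set were LUM (0.20), DCN (0.33), HOXA9, MEIS1, MAB21L2, TSHZ1, COL2A1 and ASXL3 (0.81). The 8 closest to DLK1 were DCN (0.39), COL2A1, TSHZ1, MAB21L2, PRRX1, MEIS1, MEIS2 and HOXA9 (0.50), and LUM ranked 10. PEG3 ranked 31 and PLAGL1 39 for DLK1. HOXA9, MEIS1, MEIS2 and PRRX1 are homeobox factors and COL2A1 is the cartilage collagen. With 5 arrays, 1 of them far from the rest, any gene that is low in ESC and high later scores well. Ranked by correlation instead, 1 of the 8 was shared for each of H19 and DLK1, and 3 with no floor.

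The less bright H19 sets gave other genes, in a comparison added after the values were seen. The 8 closest to the middle set were LOC694628, FRMD4B, IGF2 (0.37), MYH6, COLEC12, MSX2, PDZRN3 and HOXB6, and 0 of them were among the 8 of the brightest set. The 8 closest to the dimmest set were MYL7 (0.37), MYRF, SLC40A1, GLUD1, AKAP7, SMCO3, EPAS1 and CALML4. IGF2 ranked 3 for the middle set, 10 for the dimmest, 73 for the brightest and 70 for DLK1. MYL7 and MYH6 are heart muscle genes, and MYL7 read 324 in ESC and 9531, 7044, 1656 and 1833 from EB to N3.

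**Figure D5:**
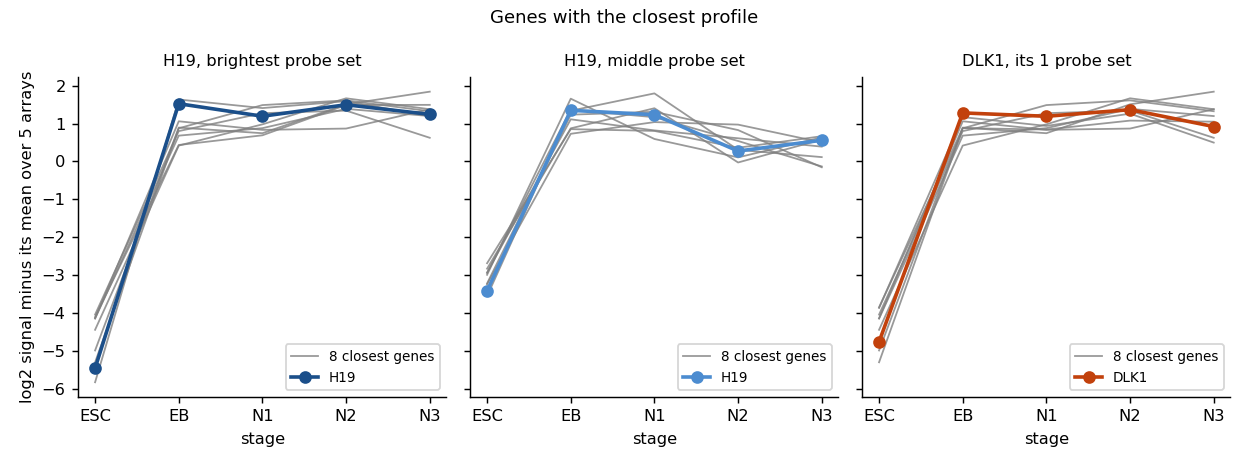
Log2 signal minus its mean over the 5 arrays (vertical axis) by stage (horizontal axis) for the brightest H19 set, the middle H19 set and DLK1 (coloured), each with its 8 closest genes (grey). The brightest H19 set and DLK1 are flat after EB, and the middle H19 set is lower in N2 and N3 than in EB and N1.

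A wide step to EB that then stayed level was uncommon among the named genes. Of 14132 genes, 45 were at least 10-fold above ESC on each later array, and in 20 of these the 4 later arrays lay within 2-fold of each other. These limits were set after the values of H19 and DLK1 were seen, so that both genes fall among the 20 by choice. H19 met them on its brightest set only. Its later arrays differed by up to 2.10-fold on the middle set and 7.64-fold on the dimmest. By the smallest fold over ESC the order began with LUM (at least 129-fold), H19 (99.9-fold), DCN (at least 71.9-fold) and DLK1 (51.1-fold). PEG3 is the other imprinted gene of the lists among them, at 12.2-fold. The other 15 were MAB21L2, TSHZ1, MEIS2, COL2A1, ZNF503, PRRX1, ADAM12, RSPO3, COL6A3, PDZRN3, JPT1, SOX6, HOXB8, ARNT2 and PAX3.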

How the data were processed

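The authors deposited 1 linear array intensity for every probe set and stage. The software was GCOS 1.0 per the submitters' processing notes; how it summarised, scaled and called probe sets is not given in the sources used here. Each of the 5 arrays was rescaled to a mean of 500 over non-control probe sets with 2% trimmed at each end, which multiplied the values by 2.51, then floored at 100 and log2 transformed (Python 3.11.15, pandas 2.3.3, NumPy 2.4.6). Each gene was represented by its brightest probe set on average (log2), from those with a single symbol in the platform table, which can be old: 24969 probe sets had 1 symbol, 361 several and 27535 were unlisted. Entrez identifiers of H19 and DLK1 matched RefSeq. A gene counted as measured above the floor on 1 array or both.

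Named genes are all H19 and DLK1 probe sets, the genes of their clusters, up to 6 members each way per other list and comparison at 2-fold or more, the 8 most like genes, and IGF2, IGF2BP1, LIN28B, ADAM17, NOTCH1, AFP and DCN. Members read as low or level beside these, the neighbours and the serotonin genes were added after their values were seen. Members and lists were chosen with earlier results of these data known. The scripts were tested on simulated data. Alternatives were 4 scalings, 3 floors, other probe sets, a 4-fold threshold and another likeness measure. Values as deposited, counted among the scalings, kept the ratios between arrays because the scale factor was 2.51 on each. They kept the same floor on lower values, so they acted as a higher floor.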

Additional observations from a re-analysis of the deposited data

How the results depend on the processing

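The number of arrays, 1 per stage, limits every value, and signal over the floor limits those of ESC. No paired analysis was possible because each stage has 1 array. No called value of H19 or DLK1 changed sign under any alternative run. Of the called genes of the imprinted and pathway lists some did: by the median of probe sets HEYL turned to -0.40 in EB over ESC, and in N3 over ESC HEYL turned to -0.50, SLC38A4 to -1.79, TFPI2 to 1.94 and KDM1B to -0.21. In N3 over ESC KCNQ1 turned to -0.07 and SLC38A4 to -2.15 with values as deposited, and to -0.40 and -2.48 with a floor of 200. For EB over ESC, H19 had a log2 ratio of 4.76 on the middle probe set, 4.11 on the dimmest and 5.10 from the median of its sets; for N3 over ESC these were 3.97, 2.27 and 4.31. In N1 over EB, H19 was at 0.13 with hybridisation control scaling and 0.58 on the dimmest set. In N2 over N1 it was at -0.27 with that scaling, -0.96 on the middle set and by the median, and -2.93 on the dimmest. In N3 over N2 it was at 0.28 on the middle set and by the median, and 0.52 on the dimmest. DLK1 moved with hybridisation control scaling alone, to 0.38 in N1 over EB and -0.40 in N2 over N1; its EB over ESC ratio stayed between 5.94 and 6.52.

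Imprinted genes higher in EB over ESC numbered 11 with equal medians and 3 at 4-fold, and lower ones 2 and 1. In N3 over ESC the higher numbered 6 with values as deposited and 7 at 4-fold, the lower 2 with hybridisation control scaling and 1 at 4-fold. Pathway genes higher in EB over ESC numbered 18 with equal medians and 3 at 4-fold; the lower numbered 3 with values as deposited and with hybridisation control scaling, 2 with equal medians, 9 by the median of probe sets and 1 at 4-fold. In N3 over ESC at 4-fold, 7 were higher and 4 lower. The causes were not tested. Of all genes past 2-fold in EB over ESC, 50.8% were higher, and 80.1% with equal medians; in N1 over EB 70.1%, 24.8% with equal medians, 52.1% after quantile normalisation and 95.2% with hybridisation control scaling; in N2 over N1 43.7%, 54.8% with equal medians and 6.85% with hybridisation control scaling; in N3 over N2 68.6%, 54.7% with equal medians and 86.3% with hybridisation control scaling; in N3 over ESC 51.2% and 63.6% with hybridisation control scaling. Ranked by correlation, 1 of the 8 closest genes was shared for each of H19 and DLK1, and with no floor 3 were.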
